A study of Mus musculus with 12 samples.

Results

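The genes described here are the axon guidance ligands and receptors measured in sorted stromal cells of the mouse gut. They were chosen by name, as every protein-coding gene of the count table called a semaphorin of classes 3 to 7, a plexin, a Slit, Robo1, Robo2 or Robo3, a netrin, an Unc5 receptor, an Eph receptor of the A or B class, or an ephrin. This gave 64 of the 32052 genes measured, of which 18052 were protein coding. They comprise 35 ligands (20 semaphorins, 3 Slits, 4 netrins, 5 ephrin-As and 3 ephrin-Bs) and 29 receptors (9 plexins, 3 Robos, 4 Unc5 receptors, 8 EphA and 5 EphB receptors). No measured value entered the choice.

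Total RNA was sequenced from stromal cells of C57Bl6 mice aged 8 to 12 weeks. The cells were EPCAM negative and CD45 negative and were sorted on expression of an Rspo3-GFP transgene, a reporter of the gene for R-spondin 3, the secreted amplifier of Wnt signalling that intestinal stem cells depend on. The 4 groups, with 3 libraries each, were GFP-positive small intestinal stroma, GFP-negative small intestinal stroma, GFP-positive colonic stroma and GFP-negative colonic stroma. All 4 share the strain, the age range and the sort against epithelium and leukocytes. The sources used here do not say how the transgene was built, whether animals were pooled, or whether each replicate was a different mouse. The p-values therefore measure the spread between these libraries, which may be technical. Samples sorted on CD31 were not analysed here.

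The libraries held 6489835 to 12286054 counts, and the guidance genes took 0.189% to 0.465% of them. Rspo3 itself had 196, 191 and 192 CPM (counts scaled to library size with TMM factors) in GFP-positive small intestinal libraries, against 8.78, 13.7 and 4.50 CPM in GFP-negative ones. In the colon Rspo3 had 161, 117 and 119 CPM in GFP-positive libraries, against 2.49, 6.51 and 2.28 CPM in GFP-negative ones, so the sort separated the libraries as labelled. The markers show mixed cell populations on both sides of the gate. Summed over 7 lymphatic endothelial markers, GFP-positive libraries had 3711 to 12522 CPM in the small intestine and 12270 to 13935 CPM in the colon, against 192 to 553 CPM and 193 to 286 CPM in the matching GFP-negative libraries. Summed over 7 fibroblast markers, the same libraries had 38389 to 58805 CPM (GFP-positive) against 7440 to 22092 CPM (GFP-negative) in the small intestine, and 18852 to 23412 CPM against 23917 to 26453 CPM in the colon. Both small intestinal groups had a library that stood apart. GFP-positive replicate 3 had 3711 CPM of lymphatic markers, against 9841 and 12522 CPM in replicates 1 and 2, and the highest fibroblast sum of all libraries. GFP-negative replicate 3 had 889 CPM of 7 leukocyte markers, against 13.5 and 9.40 CPM in replicates 1 and 2, and the lowest share of counts in guidance genes. Of the small intestinal calls given below, those of Efna5, Efnb2, Ntn4, Plxna1 and Plxna3 ended without GFP-positive replicate 3, with adjusted p of 0.0512 to 0.180, and those of Efna5 (0.0729) and Plxna3 (0.127) without GFP-negative replicate 3.

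Measures of RNA make-up also moved with the sort. In the small intestine protein-coding genes held 78.9% to 83.9% of the counts in GFP-positive libraries, against 65.9% to 76.1% in GFP-negative ones. The 2 mitochondrial ribosomal RNAs held 5.35% to 7.92% in GFP-positive libraries, against 9.73% to 12.7% in GFP-negative ones. Colonic libraries were closer, with 82.9% to 83.9% of counts in protein-coding genes for GFP-positive cells against 80.2% to 82.5% for GFP-negative cells. Colonic mitochondrial ribosomal RNA overlapped, at 5.83% to 7.10% in GFP-positive and 6.26% to 9.04% in GFP-negative libraries. The part of these measures in the results was not tested. In bulk RNA, fewer cells of a type and less RNA per cell cannot be told apart, and this holds for every value below.

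Guidance cues are secreted or membrane-bound proteins that steer growing axons by attraction or repulsion, and the same pairs pattern blood and lymphatic vessels and epithelia. Secreted class 3 semaphorins act on plexin receptors, mostly through neuropilin co-receptors. Slits act on Robos, netrins on Dcc, neogenin and the Unc5 receptors, and ephrins on Eph receptor tyrosine kinases, where both partners can signal into their own cell. In the gut these families are known for guiding enteric neuron precursors and nerve fibres, for shaping vessels, and, for EphB receptors and ephrin-Bs, for positioning cells along the crypt.

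Of the 64 genes, 55 had a promoter entry in RefSeq (build GRCm38.p6). Windows of 6 genes are shown, those of the 3 genes called higher and the 3 called lower in GFP-positive cells of both tissues whose larger adjusted p of the 2 tissues was smallest among genes with an entry, because these are the genes whose difference was seen in each tissue. Each window is 300 bases, from 250 before to 50 after the RefSeq transcript start, read 5′ to 3′ on the gene's strand. Capitals mark matches to any of 3 motifs, searched on both strands. The GC box was searched as GGGCGG. The TATA box was searched with the letters TATAAA. The CCAAT box was searched by the letters of its name. The windows are chr5:12382916-12383215 (plus strand, Sema3d), chr9:102354644-102354943 (minus, Ephb1), chr11:35121206-35121505 (plus, Slit3), chr1:77515039-77515338 (minus, Epha4), chr3:141465314-141465613 (plus, Unc5c) and chr8:8661193-8661492 (minus, Efnb2).
Sema3d: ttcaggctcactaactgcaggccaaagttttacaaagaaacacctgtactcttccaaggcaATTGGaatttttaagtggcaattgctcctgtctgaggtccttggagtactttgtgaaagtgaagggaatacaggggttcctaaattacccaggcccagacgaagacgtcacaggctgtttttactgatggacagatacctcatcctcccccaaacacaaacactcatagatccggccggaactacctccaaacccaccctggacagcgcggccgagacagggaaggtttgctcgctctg
Ephb1: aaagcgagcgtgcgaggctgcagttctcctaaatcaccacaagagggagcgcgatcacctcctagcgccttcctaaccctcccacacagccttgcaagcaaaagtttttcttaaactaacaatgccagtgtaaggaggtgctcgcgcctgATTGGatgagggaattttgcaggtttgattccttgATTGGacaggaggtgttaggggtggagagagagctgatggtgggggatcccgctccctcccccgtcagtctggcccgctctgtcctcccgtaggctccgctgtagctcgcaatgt
Slit3: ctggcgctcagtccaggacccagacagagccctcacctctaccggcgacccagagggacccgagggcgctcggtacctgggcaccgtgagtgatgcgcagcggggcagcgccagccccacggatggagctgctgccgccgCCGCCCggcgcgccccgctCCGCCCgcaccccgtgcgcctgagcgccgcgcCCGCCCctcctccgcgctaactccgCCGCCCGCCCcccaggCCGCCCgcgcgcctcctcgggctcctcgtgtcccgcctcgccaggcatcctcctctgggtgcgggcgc
Epha4: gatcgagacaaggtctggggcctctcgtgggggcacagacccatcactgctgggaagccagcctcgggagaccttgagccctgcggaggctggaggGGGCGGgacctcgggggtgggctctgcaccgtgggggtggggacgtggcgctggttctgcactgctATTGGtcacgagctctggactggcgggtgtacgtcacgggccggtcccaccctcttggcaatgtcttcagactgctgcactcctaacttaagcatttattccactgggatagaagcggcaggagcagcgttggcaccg
Unc5c: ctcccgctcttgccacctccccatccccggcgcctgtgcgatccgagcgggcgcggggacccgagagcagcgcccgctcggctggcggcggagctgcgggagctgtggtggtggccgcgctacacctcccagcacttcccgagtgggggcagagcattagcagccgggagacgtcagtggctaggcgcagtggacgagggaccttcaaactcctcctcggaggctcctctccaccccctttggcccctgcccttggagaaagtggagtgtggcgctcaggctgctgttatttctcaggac
Efnb2: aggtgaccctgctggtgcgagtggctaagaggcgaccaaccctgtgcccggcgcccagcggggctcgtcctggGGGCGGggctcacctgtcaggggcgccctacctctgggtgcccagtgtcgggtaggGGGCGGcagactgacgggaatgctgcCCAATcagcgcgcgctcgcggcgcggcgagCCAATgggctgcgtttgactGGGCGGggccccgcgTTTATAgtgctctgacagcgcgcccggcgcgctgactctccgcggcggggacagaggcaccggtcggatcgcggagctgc
A GC box occurs in 35.7% of all 32851 promoter windows of the table, a TATA box in 13.6% and a CCAAT box in 37.4%. The Slit3 window held 6 GC boxes, with overlapping matches among them, and no TATA or CCAAT box, with 78.3% GC. The Efnb2 window held 3 GC boxes, 1 TATA box and 2 CCAAT boxes. Sema3d had 1 CCAAT box and the lowest GC content of the 6, 49.7%, against a median of 52.7% over all windows. Ephb1 had 2 CCAAT boxes, Epha4 1 GC box and 1 CCAAT box, and Unc5c none of the 3 motifs, so no motif was in all 3 genes of either direction. The RefSeq starts of Slit3 and Unc5c lie inside a transcript of the GENCODE annotation and that of Sema3d lies before its annotated gene start, so these windows belong to the RefSeq start alone.

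Which guidance genes differ between Rspo3-GFP-positive and GFP-negative stroma was asked in each tissue separately. Of the 56 guidance genes with enough counts to test, 11 were higher and 14 lower in GFP-positive small intestine, where 4.24% of all 16757 genes tested were called higher and 6.63% lower. In the colon 11 were higher and 9 lower, where 4.62% of all genes tested were called higher and 4.06% lower. A call is an adjusted p under 0.05 in edgeR's quasi-likelihood test with Benjamini-Hochberg adjustment over all genes tested, and every adjusted p below is from that test. Differences are on the log2 scale, GFP-positive minus GFP-negative, with the standard error (SE). The median difference of the 56 was -0.01 for the small intestine and -0.38 for the colon, against -0.03 in both for all genes tested.

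In both tissues, 6 genes were higher in GFP-positive cells: the ligands Sema3d, Sema3a, Slit3, Ntn1 and Efna5, and the receptor Ephb1. Another 5 were lower in both: the ligand Efnb2 and the receptors Epha4, Epha3, Unc5c and Plxna1. Over all genes tested, 1.71% were called higher in both tissues and 1.54% lower in both. No guidance gene was called in opposite directions, which happened for 0.149% of all genes tested.

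**Figure D1:**
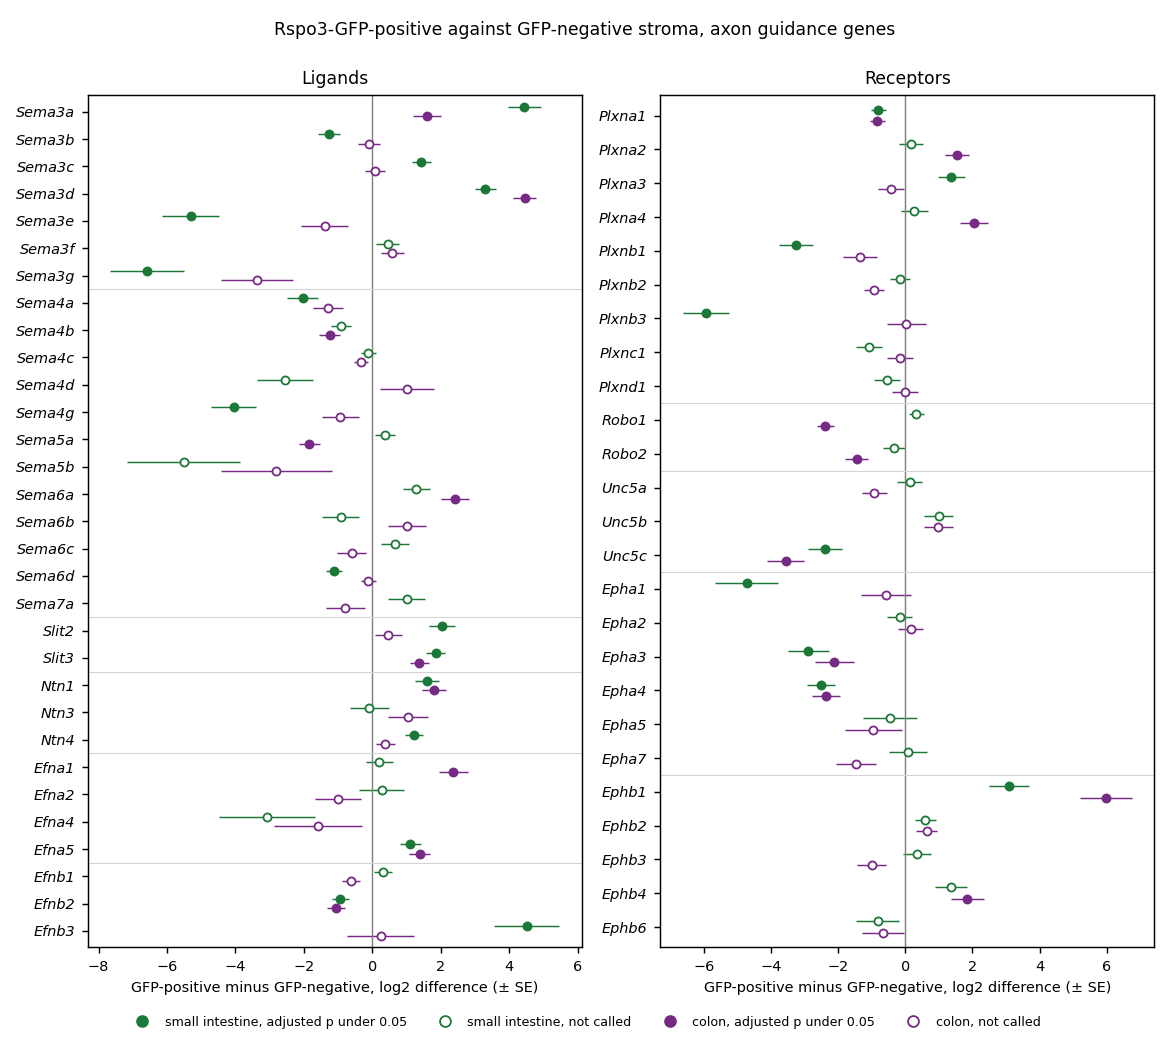
Log2 difference of GFP-positive minus GFP-negative cells (horizontal axis, with SE bars) for the 31 ligands and 25 receptors tested, small intestine in green and colon in purple. Filled points have an adjusted p under 0.05. Sema3d and Ephb1 lie far to the right in both tissues, Epha4 and Unc5c to the left, while Sema3g and Plxnb3 are filled for the small intestine and Robo1 for the colon.

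The calls split by role as follows. Over all genes tested, 4.24% were called higher and 6.63% lower in the small intestine, and 4.62% and 4.06% in the colon. These shares also stand beside the counts by subfamily below. In the small intestine 9 of the 31 tested ligands were higher and 7 lower in GFP-positive cells, and in the colon 7 were higher and 3 lower. Of the 25 tested receptors, 2 were higher and 7 lower in the small intestine, and 4 were higher and 6 lower in the colon.

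Among the class 3 semaphorins, the secreted subfamily, GFP-positive cells carried more Sema3d, Sema3a and, in the small intestine, Sema3c, and the GFP-negative small intestine carried more Sema3g, Sema3e and Sema3b. Sema3d (chromosome 5, 12383385 to 12588948), a secreted cue known from vessel and heart patterning, had 197, 156 and 149.5 CPM in GFP-positive small intestinal libraries, against 27.1, 12.8 and 10.9 CPM in GFP-negative ones. In the colon Sema3d had 392, 353 and 326 CPM in GFP-positive libraries, against 19.5, 16.2 and 13.3 CPM in GFP-negative ones. Every GFP-positive library was several times higher than every GFP-negative library of its tissue, and the log2 differences were 3.30 ± 0.31 in the small intestine (adjusted p = 0.000146) and 4.45 ± 0.33 in the colon (adjusted p = 3.74e-05).

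Sema3a, the archetypal repellent that also patterns lymphatic valves, had 95.9, 99.9 and 41.2 CPM in GFP-positive small intestinal libraries, against 5.65, 3.97 and 0.965 CPM in GFP-negative ones. The lowest GFP-positive value belonged to replicate 3, the library low in lymphatic markers, and the groups did not overlap. In the colon Sema3a had 183, 166 and 162 CPM in GFP-positive libraries, against 55.2, 60.8 and 52.7 CPM in GFP-negative ones, again without overlap. The log2 differences were 4.44 ± 0.47 in the small intestine (adjusted p = 0.000306) and 1.60 ± 0.40 in the colon (adjusted p = 0.0274). Each colon call was refitted 6 times, leaving out 1 library of the comparison at a time, and that of Sema3a ended in all 6 fits, with the highest adjusted p, 0.104, without GFP-negative replicate 3. Counts out of 6, here and below, cover only fits without a library of the comparison. Fits without a library of the other groups also ended some calls. The part of lymphatic endothelial cells in the levels of Sema3a and of the other genes that follow replicate 3 was not tested.

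Sema3c, a class 3 semaphorin known from cardiac outflow development, had its difference in the small intestine, 217 ± 97.6 CPM in GFP-positive and 80.2 ± 14.3 CPM in GFP-negative cells (SD, n = 3 each), a log2 difference of 1.44 ± 0.29 (adjusted p = 0.00675). That call ended with limma on the deposited log2 values (adjusted p = 0.0598) and in a fit of the small intestinal libraries alone (0.0676). In the colon it had 289 ± 20.03 CPM in GFP-positive and 273 ± 19.6 CPM in GFP-negative cells (SD, n = 3 each), a log2 difference of 0.08 with a 95% confidence interval of -0.47 to 0.63. Among the small intestinal GFP-positive libraries Sema3c was highest in replicate 3, at 311 CPM, against 225 and 116 CPM in replicates 1 and 2.

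The other direction was taken by Sema3g and Sema3e in the small intestine. Sema3g, a class 3 semaphorin of endothelial cells, had 0, 1.97 and 0.236 CPM in GFP-positive libraries, against 117, 74.5 and 22.7 CPM in GFP-negative ones. Sema3e, which binds plexin D1 without a neuropilin, had 0, 0.394 and 0.591 CPM in GFP-positive libraries, against 21.4, 8.04 and 9.33 CPM in GFP-negative ones. Neither gene's groups overlapped, and the log2 differences were -6.59 ± 1.08 for Sema3g (adjusted p = 0.00349) and -5.31 ± 0.83 for Sema3e (adjusted p = 0.00167).

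Blood endothelial markers, 6 genes of which 3 fell and Gpihbp1 rose, moved as a sum with Sema3g in the small intestine, with 207, 343 and 80.3 CPM in GFP-positive replicates 1 to 3 against 1567, 1253 and 425 CPM in the GFP-negative ones, and their part in the result was not tested. In the colon neither semaphorin passed the threshold, with log2 differences of -3.37 ± 1.04 for Sema3g (adjusted p = 0.0803) and -1.39 ± 0.70 for Sema3e (adjusted p = 0.305). There Sema3g was called in a fit of the colonic libraries alone (adjusted p = 0.00454) and with DESeq2 (0.0372). Sema3b was lower in the small intestine (-1.26 ± 0.32, adjusted p = 0.0223), which was not called in 3 of 6 fits: without GFP-positive replicate 1 (adjusted p = 0.0916) or 2 (0.0840), or GFP-negative replicate 1 (0.0587). Sema3f, a ligand of neuropilin 2, was called in neither tissue, with log2 differences of 0.44 (95% confidence interval -0.23 to 1.12) in the small intestine and 0.58 (-0.09 to 1.25) in the colon.

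Levels of different genes were compared per length, as TPM, the length-scaled share of transcripts, rescaled over protein-coding genes. On this scale the 7 class 3 semaphorins summed to 257 ± 12.0 TPM in GFP-positive and 193 ± 36.2 TPM in GFP-negative small intestinal cells, and to 462 ± 43.2 TPM in GFP-positive and 297 ± 32.8 TPM in GFP-negative colonic cells (SD, n = 3 each). Sema3d made up 18.1% of that sum in GFP-positive and 3.04% in GFP-negative small intestinal cells, and Sema3b made up 10.1% and 25.9% in the same order of groups. In GFP-positive colon Sema3f (32.8%), Sema3d (22.7%), Sema3c (21.1%) and Sema3a (19.5%) shared most of the sum, whereas in GFP-negative colon Sema3f (43.5%) and Sema3c (36.7%) led.

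**Figure D2:**
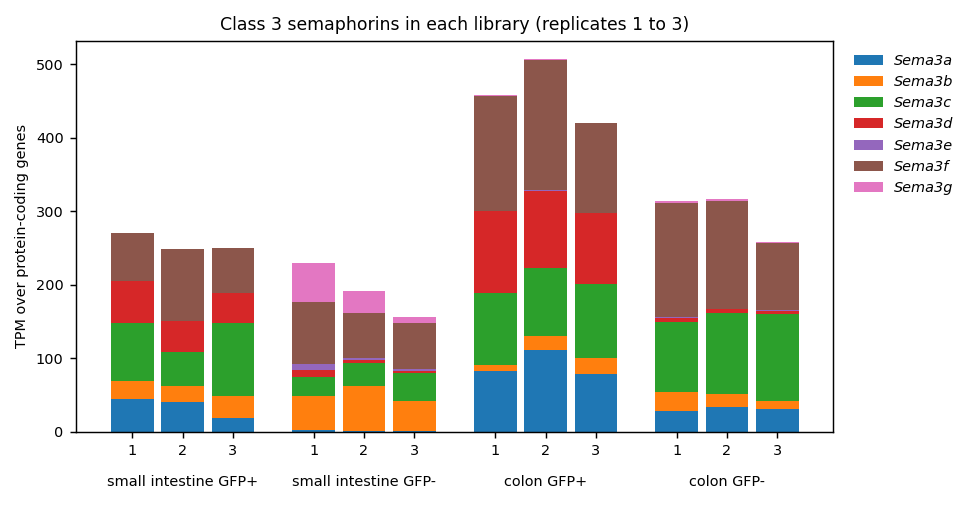
Stacked levels of the 7 class 3 semaphorins in each of the 12 libraries, in TPM over protein-coding genes (vertical axis); the numbers under the bars are replicates. Sema3d and Sema3a fill more of the GFP-positive bars, and Sema3g and Sema3b fill more of the GFP-negative small intestinal bars.

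Of the 13 semaphorins of classes 4 to 7, which are mostly membrane bound, 12 were tested. Among small intestinal libraries none was called higher and Sema4a, Sema4g and Sema6d were lower in GFP-positive cells. In the colon Sema6a was higher and Sema4b and Sema5a were lower.

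Sema6a, a membrane-bound ligand of plexins A2 and A4, had 320.0, 328 and 301 CPM in GFP-positive colonic libraries, against 60.7, 65.3 and 50.3 CPM in GFP-negative ones. The groups were far apart, with a log2 difference of 2.43 ± 0.41 (adjusted p = 0.00274). In the small intestine the difference was 1.29 ± 0.39 (adjusted p = 0.0560). It was called with the replicate number as a block (adjusted p = 0.00309). GFP-positive and GFP-negative sorts with the same number correlated there over all genes tested, and the part of this in the Sema6a call was not tested.

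Sema5a, whose receptor is plexin B3, had 20.5, 19.7 and 28.5 CPM in GFP-positive colonic libraries, against 76.4, 99.5 and 69.9 CPM in GFP-negative ones. All GFP-positive values lay below all GFP-negative ones, and the log2 difference was -1.84 ± 0.30 (adjusted p = 0.00205). Telocyte markers, those of subepithelial fibroblasts rich in BMP ligands, moved with it: their 8 genes summed to 543 to 578 CPM in GFP-positive and 2233 to 2344 CPM in GFP-negative colonic libraries, and all 8 fell. The part of these cells in the Sema5a result was not tested.

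Sema4g had 0.998, 0.394 and 0.945 CPM in GFP-positive small intestinal libraries, against 15.03, 6.48 and 18.2 CPM in GFP-negative ones. The groups did not overlap, and the log2 difference was -4.05 ± 0.66 (adjusted p = 0.00255). Epithelial markers, 8 genes summed, were at 1.91 to 15.3 CPM in the same GFP-positive libraries and at 222 to 737 CPM in the GFP-negative ones, with 6 of the 8 called lower, although the sort selected against EPCAM, and their part in the Sema4g result was not tested. Sema4a (-2.03 ± 0.45, adjusted p = 0.0121) and Sema6d (-1.12 ± 0.23, adjusted p = 0.00688) were also lower in the small intestine. Sema4b was lower in the colon (-1.24 ± 0.31, adjusted p = 0.0227), which was not called in 4 of 6 fits, with the highest adjusted p, 0.105, without GFP-positive replicate 2. Its small intestinal difference was -0.91 ± 0.30 (adjusted p = 0.0755, and 0.0446 with the replicate block).

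Sema4d, a ligand of plexin B1 known in leukocytes, had 2.91, 10.7 and 5.32 CPM in GFP-positive small intestinal libraries, against 14.7, 7.31 and 89.1 CPM in GFP-negative ones. The high value belongs to GFP-negative replicate 3, whose 7 leukocyte markers summed to 889 CPM, against 13.5 and 9.40 CPM in the other two GFP-negative libraries. Sema4d, singled out after its values were seen, had a log2 difference of -2.54 ± 0.81 (adjusted p = 0.0736), and the part of leukocytes in it was not tested. The remaining members of these classes, Sema4c, Sema5b, Sema6b, Sema6c and Sema7a, were called in neither tissue between GFP states.

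**Figure D3:**
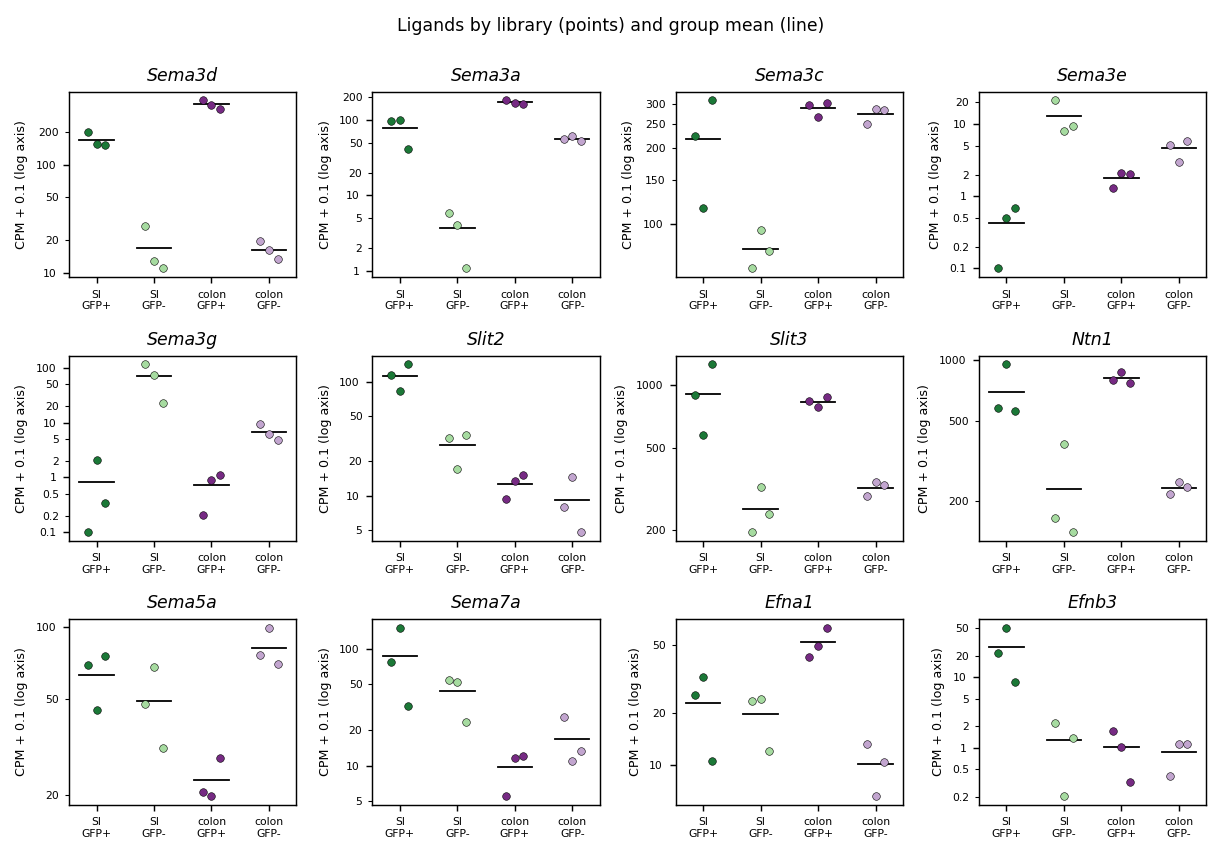
Ligands by library, as CPM + 0.1 on a log axis; points are the 3 libraries of each group, lines are group means, SI is small intestine. Sema3d, Slit3 and Ntn1 are high in every GFP-positive group, whereas Slit2, Sema7a and Efnb3 are higher in GFP-positive SI than in either colonic group.

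Slit3 and Ntn1 were the most abundant of the 64 genes per length in GFP-positive cells of both tissues. Slit3 (chromosome 11, 35121224 to 35708507), a secreted Robo ligand, had 891, 571 and 1263 CPM in GFP-positive small intestinal libraries, against 195, 321 and 239.9 CPM in GFP-negative ones. In the colon it had 837, 783 and 871 CPM in GFP-positive libraries, against 291, 339 and 330.2 CPM in GFP-negative ones. No library crossed over in either tissue, and the log2 differences were 1.85 ± 0.28 in the small intestine (adjusted p = 0.00136) and 1.37 ± 0.27 in the colon (adjusted p = 0.00702). By mean level per length Slit3 ranked the highest of the 64 genes in both GFP-positive groups, at 315 TPM in the small intestine and 298 TPM in the colon, and the third highest in both GFP-negative groups. Ntn1 was above it in replicate 2 of each GFP-positive group.

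Slit2 had 114, 82.0 and 143 CPM in GFP-positive small intestinal libraries, against 31.7, 17.2 and 34.2 CPM in GFP-negative ones. The groups were apart by a log2 difference of 2.03 ± 0.39 (adjusted p = 0.00508). In the colon it was low on both sides, at 12.5 ± 2.96 CPM in GFP-positive and 8.999 ± 4.94 CPM in GFP-negative cells (SD, n = 3 each), with a log2 difference of 0.47 (95% confidence interval -0.30 to 1.24). Slit1 did not pass the filter on low counts: it had no count in any GFP-positive library, and 55, 17 and 1 counts in GFP-negative small intestinal replicates 1 to 3. Of 11 alternative fits that tested it in the small intestine, 2 called it lower in GFP-positive cells, without the filter (adjusted p = 0.0156) and without GFP-negative replicate 3 (0.0422). The other 9, each without 1 other library, gave 0.0601 to 0.131. Enteric glial markers, 8 genes summed, were at 2.36 to 6.21 CPM in GFP-positive and 204 to 514 CPM in GFP-negative small intestinal libraries, with the defining marker Foxd3 at 0 in all 3 GFP-positive ones, and their part in the Slit1 counts was not tested.

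Ntn1 encodes netrin 1, a laminin-related secreted cue that attracts through Dcc and repels through Unc5 receptors. Ntn1 had 578, 955 and 559 CPM in GFP-positive small intestinal libraries, against 166, 382 and 141 CPM in GFP-negative ones. In the colon Ntn1 had 799.6, 869 and 765 CPM in GFP-positive libraries, against 217, 249 and 235 CPM in GFP-negative ones. Every GFP-positive library was higher, by a log2 difference of 1.60 ± 0.34 in the small intestine (adjusted p = 0.00937) and 1.80 ± 0.34 in the colon (adjusted p = 0.00550). The small intestinal call ended in a fit of the small intestinal libraries alone (adjusted p = 0.0790).

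Per length Ntn1 ranked second in both GFP-positive groups, at 242 TPM in the small intestine and 296 TPM in the colon. Netrin 4, encoded by Ntn4 and found in basement membranes, was higher in the small intestine (1.22 ± 0.28, adjusted p = 0.0128, and 0.0512 without GFP-positive replicate 3), with a colon difference of 0.38 (95% confidence interval -0.15 to 0.92). Ntn3 was called in neither tissue, and Ntn5 did not pass the filter.

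Ephrin-As, which are held in the membrane by a lipid anchor, gave 1 small intestinal and 2 colonic calls, all higher in GFP-positive cells. Efna1, a ligand of EphA2, had 42.4, 49.1 and 62.5 CPM in GFP-positive colonic libraries, against 13.2, 6.51 and 10.3 CPM in GFP-negative ones. The groups were well separated, with a log2 difference of 2.36 ± 0.42 (adjusted p = 0.00343), while in the small intestine they overlapped and the difference was 0.20 (95% confidence interval -0.58 to 0.98). Efna5 had 31.1, 30.4 and 22.7 CPM in GFP-positive colonic libraries, against 9.39, 13.2 and 9.50 CPM in GFP-negative ones. Its libraries did not overlap, and the difference was 1.39 ± 0.31 in the colon (adjusted p = 0.0135) and 1.11 ± 0.30 in the small intestine (adjusted p = 0.0322).

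The colon call of Efna5 ended in 4 of 6 fits that left out 1 library, with an adjusted p up to 0.0661 without GFP-negative replicate 3. The small intestinal call also ended in 4 of 6, with an adjusted p up to 0.0983 without GFP-positive replicate 1, and with the replicate block (adjusted p = 0.0617). Efna2 and Efna4 were called in neither tissue, and Efna3 did not pass the filter.

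Among the transmembrane ephrin-Bs, Efnb2, the partner of EphB4 in vessels, was lower in GFP-positive cells of both tissues. It had 55.1 ± 11.2 CPM in GFP-positive and 105 ± 40.7 CPM in GFP-negative small intestinal cells, and 85.3 ± 4.75 CPM in GFP-positive and 178 ± 12.3 CPM in GFP-negative colonic cells (SD, n = 3 each). The small intestinal groups overlapped and the colonic ones did not. The log2 differences were -0.93 ± 0.25 for the small intestine (adjusted p = 0.0326) and -1.06 ± 0.25 for the colon (adjusted p = 0.0185). The small intestinal call ended without GFP-positive replicate 1 (adjusted p = 0.115) or 3 (0.110) or GFP-negative replicate 1 (0.114), and the colon call in 4 of 6 fits, with an adjusted p up to 0.0811 without GFP-positive replicate 2.

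Efnb3 had 21.9, 50.7 and 8.39 CPM in GFP-positive small intestinal libraries, against 2.16, 0.104 and 1.29 CPM in GFP-negative ones. Replicate 3 was again the lowest GFP-positive library, and the groups did not overlap (log2 difference 4.51 ± 0.95, adjusted p = 0.00983). In the colon Efnb3 stayed at or under 1.65 CPM in every library, while lymphatic marker sums were 12270 to 13935 CPM in GFP-positive colonic libraries. Efnb1 was called in neither tissue, with log2 differences of 0.32 (95% confidence interval -0.20 to 0.84) in the small intestine and -0.62 (-1.15 to -0.09) in the colon.

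On the receptor side, the plexins, through which semaphorins signal, gave 1 higher and 3 lower calls in the small intestine and 2 higher and 1 lower in the colon. Plxnb3 had 0.250, 0.197 and 0.354 CPM in GFP-positive small intestinal libraries, against 25.2, 17.1 and 9.49 CPM in GFP-negative ones. Its groups lay more than an order of magnitude apart (log2 difference -5.96 ± 0.69, adjusted p = 0.000358). Plxnb3 passed the filter on low counts through GFP-negative small intestine, as libraries of the other groups had 2 to 18 counts. This limit holds for its other calls below too. In the colon Plxnb3 had at most 2.05 CPM in any library, and the difference was 0.02 (95% confidence interval -1.11 to 1.15).

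Plxnb1, the receptor of Sema4d, had 4.41, 1.87 and 4.72 CPM in GFP-positive small intestinal libraries, against 48.5, 46.6 and 11.4 CPM in GFP-negative ones. The lowest GFP-negative value was still above the highest GFP-positive one, and the log2 difference was -3.27 ± 0.51 (adjusted p = 0.00163). Both plexins moved with the glial markers, 7 of whose 7 tested genes fell in GFP-positive small intestine, and with blood endothelial markers. The part of these cells in the plexin results was not tested.

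Plxna4, a receptor of class 3 and class 6 semaphorins, had 94.3, 89.3 and 69.9 CPM in GFP-positive colonic libraries, against 27.9, 17.2 and 16.2 CPM in GFP-negative ones. The groups did not overlap, with a log2 difference of 2.05 ± 0.41 (adjusted p = 0.00793). Plxna2 was higher in the colon as well (1.54 ± 0.36, adjusted p = 0.0192), a call that ended without GFP-positive replicate 2 (adjusted p = 0.0676) or GFP-negative replicate 2 (0.0734) or 3 (0.0736). Neither was called in the small intestine, with differences of 0.27 ± 0.39 for Plxna4 and 0.16 ± 0.36 for Plxna2.

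Plxna1 had the highest mean of the 64 genes per length in GFP-negative small intestine, 139.7 ± 60.7 TPM, next to 125 ± 76.6 TPM for Plxnd1 (SD, n = 3 each). In GFP-positive cells Plxna1 was at 64.0 TPM. It was lower in GFP-positive cells of both tissues, by -0.81 ± 0.23 in the small intestine (adjusted p = 0.0370, and 0.0568 with the replicate block) and -0.83 ± 0.23 in the colon (adjusted p = 0.0383). These calls ended in 4 of 6 and 6 of 6 fits without a library, with an adjusted p up to 0.122 without GFP-positive replicate 1 of the small intestine and 0.163 without GFP-negative replicate 2 of the colon. The small intestinal call also ended in each fit without a colonic library, with an adjusted p of 0.0571 to 0.0640.

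Plxna3 was higher in the small intestine, where its groups overlapped (1.37 ± 0.40, adjusted p = 0.0446), a call lost with the replicate block (adjusted p = 0.116) and in 5 of 6 fits without a library, up to 0.180 without GFP-positive replicate 3. It was also lost in each fit without a colonic library (adjusted p 0.0567 to 0.0626). Plxnb2, Plxnc1 and Plxnd1 were called in neither tissue. The largest of their differences were -0.94 ± 0.29 for Plxnb2 in the colon (adjusted p = 0.0685) and -1.08 ± 0.39 for Plxnc1 in the small intestine (adjusted p = 0.0988). Colonic Plxnb2 was called in a fit of the colonic libraries alone (adjusted p = 0.000304) and with DESeq2 (0.0111).

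The Slit receptors Robo1 and Robo2 fell in GFP-positive colon, where Slit3 was higher. Robo1 (chromosome 16, 72308306 to 73046095) had 29.1, 28.1 and 33.0 CPM in GFP-positive colonic libraries, against 158, 164 and 150.2 CPM in GFP-negative ones. Small intestinal Robo1 was at 70.9, 39.8 and 65.2 CPM in GFP-positive libraries, against 49.5, 56.9 and 33.4 CPM in GFP-negative ones. The colonic groups were tight and far apart (log2 difference -2.39 ± 0.25, adjusted p = 0.000159), while the small intestinal groups overlapped (0.33, 95% confidence interval -0.13 to 0.79).

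Robo2 was lower in the colon, at 73.7 ± 10.3 CPM in GFP-positive and 202 ± 36.3 CPM in GFP-negative cells (SD, n = 3 each), by -1.46 ± 0.34 (adjusted p = 0.0181). That call ended in 4 of 6 fits without a library, with an adjusted p up to 0.0947 without GFP-positive replicate 2, with the replicate block (0.0775) and with limma (0.107). Per length Robo2 had the highest mean of the 64 genes in GFP-negative colon, 132 ± 55.3 TPM, next to 131 ± 34.4 TPM for Sema3f (SD, n = 3 each). The Robo2 libraries were at 107, 196 and 94.1 TPM. Robo3 did not pass the filter. Telocyte markers fell with both Robos in the colon, as given for Sema5a. Smooth muscle markers, of which 6 of 8 fell, summed to 646 to 772 CPM in GFP-positive and 3062 to 4046 CPM in GFP-negative colonic libraries. All 3 markers of interstitial cells of Cajal, the gut pacemaker cells, fell too. Of 6 pericyte markers tested 4 fell, and the 7 listed summed to 196 to 209 CPM in GFP-positive and 471 to 763 CPM in GFP-negative colonic libraries. In the small intestine neither Robo was called. There 5 of 8 smooth muscle, 2 of 6 pericyte and 1 of 3 Cajal cell markers fell, and 0 of 8 telocyte markers. The part of these cells in the Robo results was not tested.

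Unc5c, a netrin receptor of the repulsive class, had 2.42, 1.32 and 1.14 CPM in GFP-positive colonic libraries, against 14.4, 25.7 and 18.7 CPM in GFP-negative ones. The groups did not overlap, with a log2 difference of -3.57 ± 0.55 (adjusted p = 0.00147), and in the small intestine the difference was -2.40 ± 0.51 (adjusted p = 0.00895). Unc5b, the Unc5 receptor known in vessels, pointed the other way, with differences of 1.00 ± 0.43 in the small intestine (adjusted p = 0.183) and 0.98 ± 0.43 in the colon (adjusted p = 0.235). It was called in the small intestine with the replicate block (0.98 ± 0.14, adjusted p = 0.00429). Colonic Unc5b was called with the replicate block (adjusted p = 0.00372) and in a fit of the colonic libraries alone (0.000309). Unc5a was called in neither tissue, and Unc5d did not pass the filter.

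The EphA receptors gave calls in the lower direction only, 3 of 6 tested in the small intestine and 2 of 6 in the colon. Epha4, which binds ephrins of both classes, had 4.41, 3.84 and 4.37 CPM in GFP-positive small intestinal libraries, against 40.8, 20.4 and 11.6 CPM in GFP-negative ones. In the colon Epha4 had 2.31, 1.98 and 3.54 CPM in GFP-positive libraries, against 13.9, 13.0 and 13.6 CPM in GFP-negative ones. Both tissues showed separate groups, with log2 differences of -2.52 ± 0.41 in the small intestine (adjusted p = 0.00212) and -2.36 ± 0.42 in the colon (adjusted p = 0.00347).

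Epha1 had 0, 0.0985 and 0.591 CPM in GFP-positive small intestinal libraries, against 9.26, 2.92 and 5.95 CPM in GFP-negative ones. The groups were separate (log2 difference -4.74 ± 0.93, adjusted p = 0.00599), and the epithelial markers given for Sema4g moved the same way. Epha1 shares 236 exon bases, 6.01% of its exons, with Zyx on the opposite strand, which had 11914 counts over the 12 libraries against 326 for Epha1, and whether the counting used strand is not given in the sources used here.

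Epha3, a receptor of ephrin-A5, was lower in both tissues, by -2.89 ± 0.60 in the small intestine (adjusted p = 0.00812) and -2.12 ± 0.58 in the colon (adjusted p = 0.0397). The colon call ended in all 6 fits without a library, with an adjusted p up to 0.175 without GFP-negative replicate 2, and also with the replicate block (0.0820) and without the filter (0.0854). The small intestinal call ended in a fit of the small intestinal libraries alone (0.0564). Epha2, Epha5 and Epha7 were called in neither tissue, and Epha6 and Epha8 did not pass the filter.

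The EphB receptors gave calls in the higher direction only, Ephb1 in both tissues and Ephb4 in the colon. Ephb1 (chromosome 9, 101922128 to 102354693) had 28.0, 42.3 and 8.27 CPM in GFP-positive small intestinal libraries, against 4.09, 3.24 and 1.77 CPM in GFP-negative ones. In the colon Ephb1 had 13.4, 19.8 and 18.2 CPM in GFP-positive libraries, against 0.440, 0.343 and 0 CPM in GFP-negative ones. The groups were separate in both tissues, replicate 3 again being the lowest small intestinal GFP-positive library, and the log2 differences were 3.09 ± 0.61 in the small intestine (adjusted p = 0.00623) and 5.98 ± 0.78 in the colon (adjusted p = 0.000589).

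Ephb4, the ephrin-B2 receptor of veins and lymphatic vessels, had 223 ± 18.6 CPM in GFP-positive and 62.4 ± 12.7 CPM in GFP-negative colonic cells (SD, n = 3 each), a log2 difference of 1.84 ± 0.49 (adjusted p = 0.0397). That call ended in all 6 fits without a library, with an adjusted p up to 0.148 without GFP-negative replicate 2. In the small intestine the difference was 1.36 ± 0.48 (adjusted p = 0.106), and it was called with the replicate block (1.26 ± 0.21, adjusted p = 0.00833). Its small intestinal GFP-positive values, 189, 412 and 95.9 CPM in replicates 1 to 3, ran in the same order as the lymphatic marker sums of 9841, 12522 and 3711 CPM, and the part of lymphatic endothelium was not tested.

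By mean level per length Ephb4 ranked below Slit3 and Ntn1 alone in GFP-positive small intestine, at 90.2 ± 56.7 TPM (SD, n = 3), while its ligand Efnb2 was at 20.2 TPM. In GFP-negative small intestine Ephb4 was at 40.9 TPM and Efnb2 at 43.8 TPM. Ephb2 and Ephb3, known for positioning crypt epithelial cells, and Ephb6, which lacks kinase activity, were called in neither tissue.

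**Figure D4:**
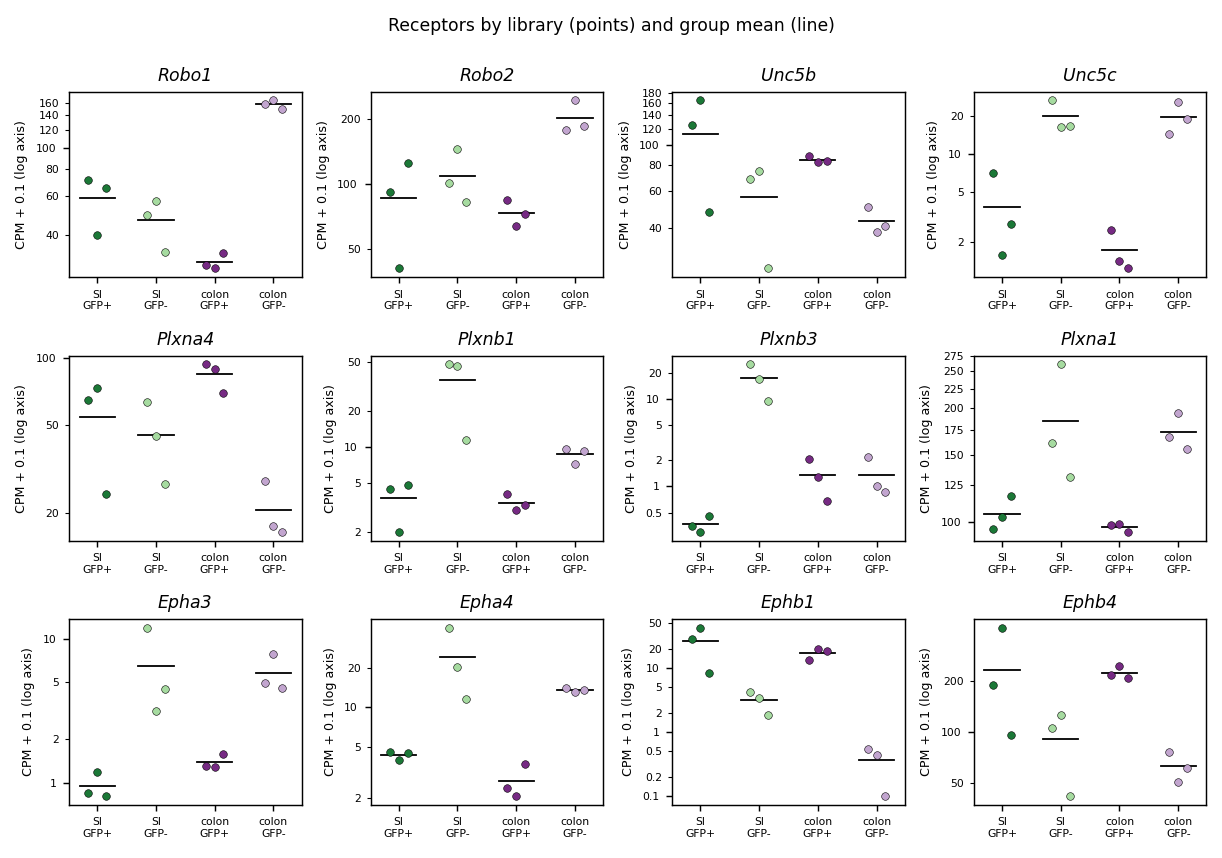
Receptors by library, as CPM + 0.1 on a log axis; points are the 3 libraries of each group, lines are group means, SI is small intestine. Robo1 is highest in GFP-negative colon, Plxnb3 in GFP-negative small intestine, and Ephb1 is high in both GFP-positive groups while Epha4 and Unc5c are low there.

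Summed per length, the ligands were higher in GFP-positive cells of both tissues and the receptors were not. The 35 ligands summed to 1326, 1295 and 1326 TPM in GFP-positive small intestinal libraries, against 942, 855 and 673 TPM in GFP-negative ones, and to 1438, 1559 and 1483 TPM in GFP-positive colonic libraries, against 927, 969.9 and 845 TPM in GFP-negative ones. No GFP-positive library overlapped a GFP-negative one of its tissue. The 29 receptors summed to 611, 588 and 579 TPM in GFP-positive small intestinal libraries, against 869, 796 and 441 TPM in GFP-negative ones, which overlap. In the colon the receptors summed to 541, 554 and 488 TPM in GFP-positive libraries, against 672, 768 and 671 TPM in GFP-negative ones, lower in every GFP-positive library. These sums are a description, in which Slit3 and Ntn1 weigh most.

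**Figure D5:**
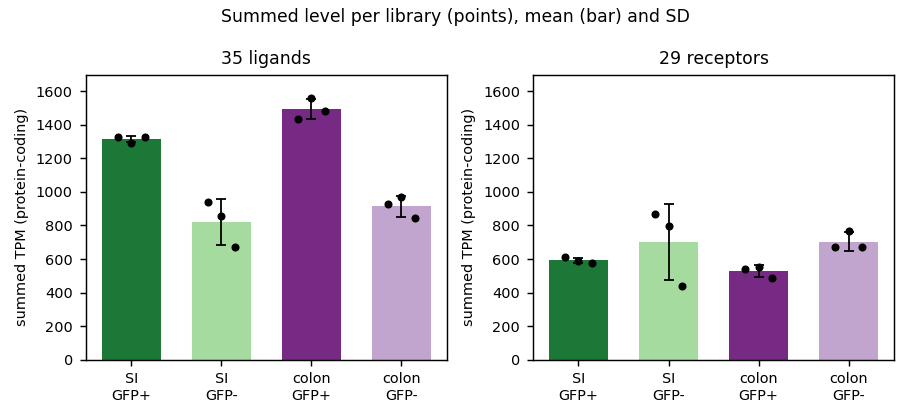
Summed TPM over protein-coding genes (vertical axis) of the 35 ligands (left) and 29 receptors (right); bars are means of 3 libraries, whiskers SD, points libraries, SI is small intestine. Ligand sums lie above those of GFP-negative cells in both tissues, receptor sums below them in the colon.

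Proteins that work beside these families, 17 co-receptors and related genes of which 13 were tested, gave 3 higher and 5 lower calls in the small intestine and 4 higher and 4 lower in the colon. The shares over all genes tested were 4.24% higher and 6.63% lower in the small intestine, and 4.62% and 4.06% in the colon. The neuropilins, the co-receptors that bind class 3 semaphorins, split. Nrp2 had 871, 1041 and 481 CPM in GFP-positive small intestinal libraries, against 234, 222 and 123 CPM in GFP-negative ones (log2 difference 2.05 ± 0.31, adjusted p = 0.00136). Nrp1 had 86.5, 76.5 and 85.1 CPM in GFP-positive colonic libraries, against 227, 230.0 and 243 CPM in GFP-negative ones (-1.50 ± 0.25, adjusted p = 0.00257). Neither pair of groups overlapped, and both genes were called in the same direction in the other tissue: Nrp2 was higher in the colon (1.34 ± 0.30, adjusted p = 0.0142) and Nrp1 lower in the small intestine (-0.998 ± 0.25, adjusted p = 0.0212).

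Flrt2 and Flrt3, which encode membrane proteins that bind Unc5 receptors, were higher in both tissues. Flrt3 differed by 2.04 ± 0.32 in the small intestine (adjusted p = 0.00173) and 1.29 ± 0.32 in the colon (adjusted p = 0.0219), and Flrt2 by 2.88 ± 0.48 (adjusted p = 0.00272) and 1.86 ± 0.45 (adjusted p = 0.0225). Flrt1 and Gpc1, a glypican that binds Slits, were lower in both. L1cam, an adhesion molecule of axons and glia, was lower in the small intestine (-3.21 ± 0.31, adjusted p = 0.000156), and Neo1, the netrin receptor neogenin, was lower in the colon (-1.39 ± 0.26, adjusted p = 0.00491). Dcc, the attractive netrin receptor, had at most 0.440 CPM in any library and was not tested.

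Of 29 intracellular effectors of these receptors, 28 were tested, with 7 higher and 4 lower in the small intestine and 8 higher and 3 lower in the colon. The shares over all genes tested were again 4.24% higher and 6.63% lower in the small intestine, and 4.62% and 4.06% in the colon. Higher in both were Srgap3, a Slit-Robo GTPase-activating protein, Mical2, Mical3, the kinase Fyn, and the exchange factors Kalrn and Vav3. Lower in both were Enah, Mical1 and Nck2. Enah, an actin regulator downstream of Robo and netrin receptors, was at 32.8 ± 6.85 CPM in GFP-positive and 131 ± 15.8 CPM in GFP-negative colonic cells (SD, n = 3 each), a log2 difference of -1.99 ± 0.24 (adjusted p = 0.000406). Srgap3 was at 54.8 ± 3.23 CPM in GFP-positive and 18.2 ± 3.70 CPM in GFP-negative small intestinal cells (SD, n = 3 each), a difference of 1.59 ± 0.30 (adjusted p = 0.00506). Tiam1, a Rac exchange factor, differed by 1.497 ± 0.22 in the small intestine (adjusted p = 0.00119) and 0.20 ± 0.22 in the colon (adjusted p = 0.706).

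Whether the GFP difference itself differs between tissues was tested as the colon difference minus the small intestinal one. Of the 56 genes tested, 1 was called higher and 3 lower, where 1.16% of all genes tested were called higher and 0.895% lower. Robo1 had an interaction of -2.72 ± 0.34 (adjusted p = 0.00311): it fell in GFP-positive colon, and its small intestinal groups overlapped. Plxnb3 had 5.98 ± 0.88 (adjusted p = 0.00679): it fell in GFP-positive small intestine and was at or under 2.05 CPM in both colonic groups. Sema3a had -2.84 ± 0.59 (adjusted p = 0.0333) and was higher in GFP-positive cells of both tissues, by a smaller log2 difference in the colon. Its GFP-negative small intestinal libraries had 47, 38 and 6 counts. Limma on the deposited log2 values gave an interaction of -0.17 for Sema3a (adjusted p = 0.912). Sema5a had -2.21 ± 0.41 (adjusted p = 0.0212). The Sema3a call ended in 8 of 12 fits without a library, with an adjusted p up to 0.0929 without GFP-positive colonic replicate 2. The Sema5a call ended in 6 of 12, up to 0.0691 without GFP-negative colonic replicate 2.

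Within GFP-positive cells, colon was compared with small intestine. Of the 56 genes tested, 3 were higher and 5 lower in the colon, where 2.75% of all genes tested were called higher and 1.81% lower. Slit2 had 9.23, 13.3 and 14.97 CPM in GFP-positive colonic libraries, against the 114, 82.0 and 143 CPM of GFP-positive small intestine. The regions were far apart (log2 difference, colon minus small intestine, -3.17 ± 0.41, adjusted p = 0.00126). Sema7a, a lipid-anchored semaphorin that binds plexin C1 and integrins, had 5.38, 11.6 and 11.9 CPM in GFP-positive colon, against 76.0, 150.4 and 32.1 CPM in GFP-positive small intestine.

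The Sema7a groups did not overlap, and the difference was -3.16 ± 0.60 (adjusted p = 0.0116, and 0.0513 without GFP-positive colonic replicate 2). Efnb3 had 1.65, 0.924 and 0.229 CPM in GFP-positive colon, against its 21.9, 50.7 and 8.39 CPM in GFP-positive small intestine (-4.83 ± 0.97, adjusted p = 0.0142). The Efnb3 call ended without GFP-positive small intestinal replicate 2 (adjusted p = 0.0532) or GFP-positive colonic replicate 2 (0.0774) or 3 (0.0641). Sema5a (-1.47 ± 0.30, adjusted p = 0.0127) and Robo1 (-0.96 ± 0.24, adjusted p = 0.0369) were lower as well, calls that ended in 4 of 6 and 5 of 6 fits, with adjusted p up to 0.0722 and 0.157, both without GFP-positive colonic replicate 2.

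Sema4g had 9.23, 12.5 and 37.5 CPM in GFP-positive colon, against its 0.998, 0.394 and 0.945 CPM in GFP-positive small intestine (4.64 ± 0.67, adjusted p = 0.00228). Epha1 had 2.09, 3.96 and 2.86 CPM in GFP-positive colon, against its 0, 0.0985 and 0.591 CPM in GFP-positive small intestine (3.71 ± 0.91, adjusted p = 0.0354). Both genes were higher in every colonic library, and so were the epithelial markers, at 320 to 1830 CPM in GFP-positive colon and 1.91 to 15.3 CPM in GFP-positive small intestine, whose part was not tested. The Epha1 call ended in 5 of 6 fits, up to 0.118 without GFP-positive colonic replicate 2. Sema3d was the third gene higher in the colon (1.09 ± 0.29, adjusted p = 0.0491), a call that ended in all 6 fits without a library, up to 0.169 without GFP-positive small intestinal replicate 3.

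Within GFP-negative cells, 3 genes were higher and 7 lower in the colon, where 2.2% of all genes tested were called higher and 2.01% lower. Sema3a had 55.2, 60.8 and 52.7 CPM in GFP-negative colon, against 5.65, 3.97 and 0.965 CPM in GFP-negative small intestine (3.95 ± 0.47, adjusted p = 0.00135). Robo1 had 158, 164 and 150.2 CPM in GFP-negative colon, against 49.5, 56.9 and 33.4 CPM in GFP-negative small intestine (1.75 ± 0.24, adjusted p = 0.00280). Sema3c had 250.4, 285 and 283 CPM in GFP-negative colon, against 66.8, 95.4 and 78.3 CPM in GFP-negative small intestine (1.77 ± 0.29, adjusted p = 0.00647). These 3 genes were each higher in every GFP-negative colonic library than in any GFP-negative small intestinal one. Telocyte marker sums were also higher there, at 2233 to 2344 CPM in GFP-negative colon and 620 to 1251 CPM in GFP-negative small intestine. Between the GFP states of the colon these 4 did not all move together. In GFP-positive colon the telocyte sums (543 to 578 CPM) and Robo1 were lower, Sema3a was higher and Sema3c was not called. The part of telocytes was not tested.

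Of the 7 genes lower in GFP-negative colon, Plxnb3 had 2.05, 0.914 and 0.760 CPM there, against 25.2, 17.1 and 9.49 CPM in GFP-negative small intestine (-3.80 ± 0.60, adjusted p = 0.00546). Plxnc1, the receptor of Sema7a, had 4.55, 8.34 and 3.55 CPM in GFP-negative colon, against 16.8, 22.4 and 37.8 CPM in GFP-negative small intestine (-2.22 ± 0.40, adjusted p = 0.0109). Neither gene's groups overlapped; the Plxnc1 call ended without GFP-negative colonic replicate 1 (adjusted p = 0.0512) or 3 (0.0711). Sema3b had 25.5, 12.1 and 10.8 CPM in GFP-negative colon, against 56.0, 54.6 and 38.8 CPM in GFP-negative small intestine (-1.63 ± 0.32, adjusted p = 0.0163), a call that ended without GFP-negative colonic replicate 2 (0.0825) or 3 (0.0859).

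Ephb1 had 0.440, 0.343 and 0 CPM in GFP-negative colon, against 4.09, 3.24 and 1.77 CPM in GFP-negative small intestine (-3.50 ± 0.78, adjusted p = 0.0276). Efna5 had 9.39, 13.2 and 9.50 CPM in GFP-negative colon, against 28.7, 37.8 and 15.8 CPM in GFP-negative small intestine (-1.36 ± 0.31, adjusted p = 0.0306). Both genes were lower in every GFP-negative colonic library. Plxnb1 (-2.04 ± 0.48, adjusted p = 0.0360) and Slit2 (-1.61 ± 0.39, adjusted p = 0.0407) were lower too. These last 4 calls ended in 4 to 5 of 6 fits without a library, with adjusted p up to 0.0996 for Ephb1, 0.152 for Efna5 and 0.169 for Slit2, each without GFP-negative colonic replicate 3, and up to 0.150 for Plxnb1 without GFP-negative colonic replicate 2.

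Calls also depended on the tool and on which libraries shared the estimate of spread. The fit of all 12 libraries shared 1 estimate per gene over both tissues. Chi-square per degree of freedom between the counts of 2 replicates was 46.2 to 122 in the small intestine and 10.2 to 18.8 in the colon. All-gene calls went from 1821 to 850 with the small intestinal libraries alone and from 1456 to 3016 with the colonic libraries alone. The part of unequal spread in the number of calls per tissue was not tested. Limma used the deposited log2(TPM + 1) values, where the added 1 shrinks differences between low levels. Protein-coding genes hold 4.65% to 8.09% of the deposited TPM. In the small intestine limma gave a log2 difference of -0.34 for Epha1, against -4.74 with edgeR. For the more abundant Plxna1 it gave -0.72 against -0.81. The part of the added 1 in the lost calls was not tested. With limma on the deposited log2 values, 14 of the 25 small intestinal calls ended (adjusted p 0.0598 to 0.513): Efna5, Efnb2, Epha1, Ephb1, Plxna1, Plxna3, Plxnb1, Sema3b, Sema3c, Sema3e, Sema4a, Sema4g, Sema6d and Unc5c. In the colon 7 of 20 ended with limma (0.0803 to 0.237): Efna5, Efnb2, Epha4, Plxna1, Plxna2, Robo2 and Sema4b. Fitting the small intestinal libraries alone ended 10 calls there (0.0535 to 0.196): Efna5, Efnb2, Epha3, Ntn1, Ntn4, Plxna1, Plxna3, Sema3c, Sema4a and Sema6d. Fitting the colonic libraries alone ended none. It called 10 more, with adjusted p of 0.000304 (Plxnb2) to 0.0498 (Sema4d): Efnb1, Epha7, Ephb3, Plxnb1, Plxnb2, Sema3g, Sema4a, Sema4d, Sema6b and Unc5b. Between the regions limma ended the calls of Epha1, Robo1, Sema4g, Sema5a and Sema7a within GFP-positive cells (0.106 to 0.594) and of Efna5, Ephb1, Plxnb1, Sema3b and Slit2 within GFP-negative cells (0.127 to 0.818). A fit of only the libraries compared ended Epha1 within GFP-positive cells (0.0924) and the same 5 genes within GFP-negative cells (0.0508 to 0.103).

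In the fit of all 12 libraries the comparisons leave Sema3f, Sema4c, Sema4d, Sema5b, Sema6b, Sema6c, Ntn3, Efna2, Efna4, Efnb1, Plxnb2, Plxnd1, Unc5a, Unc5b, Epha2, Epha5, Epha7, Ephb2, Ephb3 and Ephb6 without a call in any of the 5. Some of these genes were called under alternatives. Per length Sema3f and Plxnd1 were abundant in every group. Sema3f was at 74.7 TPM in GFP-positive and 69.7 TPM in GFP-negative small intestine, and at 152 and 131 TPM in colon. Plxnd1 was at 79.0 and 125 TPM in the same small intestinal groups. The main fit put Sema3f higher in colon by 1.22 in GFP-positive (adjusted p = 0.0721) and 1.08 in GFP-negative cells (0.106). DESeq2, limma and the replicate block called both differences. Adjusted p was 0.00813, 0.0204 and 0.00853 for GFP-positive and 0.027, 0.0112 and 0.0225 for GFP-negative cells. No filter, protein-coding scaling and only the libraries compared called neither. Efna3, Epha6, Epha8, Ntn5, Robo3, Sema4f, Slit1 and Unc5d did not pass the filter on low counts. Of these 8, Slit1 alone was called under any of the alternatives run.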

How the data were processed

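The authors deposited gene-level estimated counts and a table of log2(TPM + 1) values; Salmon 1.1.0, R 3.6.1 and the mm10 genome are named, per the submitters' processing notes. The deposited estimated counts are whole numbers, and the annotation, the filters, the rounding and the use of strand are not given in the sources used here. Gene symbols and positions came from GENCODE M21, which gave 32001 of 32052 identifiers a symbol and left 51 without.

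Counts of all 12 libraries were fitted together by group with edgeR 4.0.16 in R 4.3.3 (TMM scaling, filterByExpr with a minimum count of 10, quasi-likelihood test), with Benjamini-Hochberg adjustment over 16757 genes. The alternatives were DESeq2 1.42.0, no filter, limma 3.58.1 on the deposited log2 values, scaling over protein-coding genes, only the libraries compared, the replicate number as a block, and each library left out. Levels per length are the deposited values taken out of the log2 scale and rescaled over protein-coding genes, which hold 4.65% to 8.09% of the deposited TPM. Tables were made with Python 3.11.15 and pandas 2.3.3.

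In the small intestine, deviations from the group means correlated between GFP-positive and GFP-negative sorts of the same number (0.323, 0.179 and 0.166). The main fit did not pair the sorts, so its SE and adjusted p are unpaired. The replicate number entered only the alternative with a block. In the small intestine the block ended the calls of Efna5, Plxna1 and Plxna3 and called Ephb4, Sema4b, Sema6a and Unc5b. Except for colonic replicate 1, names of same-numbered sorts share a number or prefix, and replicate 3 shares one across tissues, but what these mark is not stated. Values in every library are given for up to 12 called genes with the smallest adjusted p in each GFP comparison and up to 8 in each other comparison, and other genes are named beside their subfamily. The genes and lists were chosen with earlier results of these data known.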

Additional observations from a re-analysis of the deposited data

Results flagged for a closer look

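In all, 4 guidance genes had a GFP effect that differed between colon and small intestine, by the test of that difference (colon effect minus small intestinal effect, log2 scale, edgeR adjusted p under 0.05). Plxnb3 differed by 5.98 (adjusted p = 0.00679), being lower in GFP-positive cells in 3 of 3 small intestinal libraries and at or under 2.05 CPM in every colonic library. Robo1 differed by -2.72 (adjusted p = 0.00311), being lower in 3 of 3 GFP-positive colonic libraries, with overlapping groups in the small intestine. Sema3a differed by -2.84 (adjusted p = 0.0333), being higher in 3 of 3 GFP-positive libraries of each tissue, by a smaller log2 difference in the colon. Sema5a differed by -2.21 (adjusted p = 0.0212), being lower in 3 of 3 GFP-positive colonic libraries.

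With limma on the deposited log2 values none of the 4 passed, with adjusted p of 0.206 for Plxnb3, 0.0570 for Robo1, 0.912 for Sema3a and 0.226 for Sema5a.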

How the results depend on the processing

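No called difference changed sign under any alternative. Of 67 calls of single genes over the 5 comparisons, 67 were kept with DESeq2 and with scaling over protein-coding genes, 62 without the filter, 59 with the replicate block, 32 with limma on log2(TPM + 1), and 44 to 64 when 1 library was left out. With only the libraries compared, 47 of 63 were kept.

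In the small intestine limma called 7 genes higher and 4 lower, and the fit of only the libraries compared called 6 higher and 9 lower, against 11 and 14 in the report. In the colon 9 genes were called lower in the report, 4 with limma and 16 with only the libraries compared. All-gene calls went from 1821 in the small intestine to 671 with limma and 850 with only the libraries compared. For the colon they went from 1456 to 1154 and 3016 in the same order. For the difference of GFP effects, with 1 higher and 3 lower in the report, DESeq2 called 8 and 5, no filter gave 4 higher and the replicate block 5 higher. Limma called 0 and 0 there, with 15 of 56 genes at an unadjusted p under 0.05. Within GFP-positive cells, with 3 higher and 5 lower in the report, DESeq2 called 7 higher and 9 lower, limma 2 lower and only the libraries compared 8 lower. Within GFP-negative cells, with 3 higher and 7 lower in the report, DESeq2 called 5 higher, limma 7 higher and 3 lower, the replicate block 5 higher, and only the libraries compared 3 lower. All-gene calls for the difference went from 345 to 1095 with DESeq2, 514 without the filter, 330 with the replicate block and 160 with limma. Within GFP-positive cells 765 became 1430 with DESeq2, 376 with limma and 962 with only the libraries compared. Within GFP-negative cells 706 became 1666, 1509 and 406 in the same order, and 944 with the replicate block. The cause was not tested.

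Leaving out 1 library gave 9 to 11 higher and 11 to 16 lower in the small intestine, 7 to 11 higher and 4 to 12 lower in the colon, and 1 to 6 higher and 1 to 6 lower for the difference. It gave 1 to 5 higher and 1 to 9 lower within GFP-positive cells, and 3 to 6 higher and 1 to 8 lower within GFP-negative cells. These fits have fewer samples.

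Limma on log2(TPM + 1) moved the median of all genes by 0.289 within GFP-positive cells, 0.401 within GFP-negative cells and -0.121 for the difference. Outside the small intestine, same-number correlations were not all over 0.1 (0.00933, 0.0465 and 0.0903 between colonic sorts, 0.0204, 0.0496 and 0.0540 between regions in GFP-positive cells, and 0.0976, 0.0281 and 0.223 in GFP-negative cells), and colonic replicate 1 correlated better with replicate 2 (0.0809). There the replicate block ended the colon calls of Epha3 and Robo2 and called Unc5b, and ended Sema5a for the difference, Robo1 within GFP-positive and Slit2 within GFP-negative cells. All-gene calls in the small intestine numbered 1821, against 2673 with DESeq2 and 671 with limma. Slit1, under the filter in the report, was called in the small intestine without it (0.0156).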
